A study of Mus musculus with 5 samples.

Results

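The cells described here were Lin-kit+ bone marrow cells with a measurable amount of Mpo transcript, little Elane transcript and no Irf8 transcript. A Lin-kit+ cell was a member when Mpo made up at least 0.3% of its transcripts, Elane under 0.5%, S100a8 and S100a9 together under 1%, when it held at most 4 Ltf transcripts and when no Irf8 transcript was read. The members were thus chosen by their measured levels of Mpo, Elane, S100a8, S100a9, Ltf and Irf8. Of 11581 Lin-kit+ cells, 294 were members, and the whole series held 12893 cells. The labels give the strain of every sample as Fgd5CreERT2/+Rosa26Tomato/+, its age as 20 weeks and no treatment. In this strain a ZsGreen reporter and an inducible Cre recombinase sit in the Fgd5 locus, a gene of hematopoietic stem cells, and a Tomato reporter behind a lox-stop-lox cassette waits for Cre at Rosa26. Lin-kit+ cells were sorted from bone marrow as CD45.2+ cells that carried c-kit and lacked lineage markers, and 3 such samples were profiled as libraries a, b and c. The other 2 samples were sorted for the ZsGreen reporter in addition, 1 of them also for a stem cell surface phenotype, and their 2 libraries are used here only to count cells that meet the rule. Neither the number of mice nor any pooling is given in the sources used here, and the labels do not tie a library to a single Lin-kit+ sample. The labels do not name separate mice for the samples, so the spread between the 3 libraries may be technical. The tests below compare sets of cells within each library and share their estimate of spread across genes. Their p-values and standard errors thus do not measure how a single gene varied between libraries.

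Myeloperoxidase, the product of Mpo, is a heme enzyme that is made in the endoplasmic reticulum, bound there by the chaperone calreticulin (Calr), and packed into the primary (azurophil) granules of neutrophil precursors. Neutrophil elastase (Elane), proteinase 3 (Prtn3) and cathepsin G (Ctsg) are serine proteases of the same granules. Irf8 is a transcription factor that directs progenitors towards monocytes and dendritic cells, while Cebpe directs late granulocyte differentiation. Basophils, mast cells and eosinophils arise from Gata2-expressing progenitors and load their granules with other products, among them the proteases Prss34, Mcpt8 and Cpa3 and the basic proteins Prg2 and Epx.

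The working name of these cells was Mpo-high granulocyte-monocyte progenitors with low Elane, and some of the data went against it. Mpo chose the cells, so its level is a description only, and it stood at 4429, 4778 and 4801 CPM in the members of libraries a, b and c, and at 4116, 4276 and 4562 in all other Lin-kit+ cells. A UMI is a molecular tag that counts 1 transcript, and levels are given throughout as CPM, the UMIs of a gene in 1000000 UMIs of the summed cells of a library, in the order a, b and c. Mpo was higher in members within each library, and by cell the median share of UMIs was 0.428% in members and 0.239% in the others, a set that holds Elane-high cells with a median of 0.880% as well as cells with little Mpo. Of the marker genes given with the name, Calr and Plac8 were higher in the members than in all other Lin-kit+ cells and Slpi was lower. Against Elane-high cells Plac8 was lower in the members. Genes of basophils, mast cells and eosinophils were among those with the largest increases. The cells are called members below.

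The promoters of Prss34, Cpa3 and Ms4a2 are shown as examples of the basophil, mast cell and eosinophil genes that rose together. Each stretch is the 250 bases before the RefSeq start of the gene (build GRCm38.p6), 5′ to 3′ on the strand of the gene, with the letters GATAA or their reverse complement TTATC in capitals. GATAA is the core of the motif that Gata factors such as Gata2 are known to bind. The stretches are chr17:25298144-25298393 (+) for Prss34, chr3:20242182-20242431 (-) for Cpa3, chr19:11623720-11623969 (-) for Ms4a2 and chr14:56102575-56102824 (-) for Ctsg, a primary granule gene shown beside them.
Prss34: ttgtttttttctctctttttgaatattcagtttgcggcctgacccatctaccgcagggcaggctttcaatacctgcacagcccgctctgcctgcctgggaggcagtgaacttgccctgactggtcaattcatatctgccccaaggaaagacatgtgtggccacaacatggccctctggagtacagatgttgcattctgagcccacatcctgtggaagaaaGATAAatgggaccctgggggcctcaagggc
Cpa3: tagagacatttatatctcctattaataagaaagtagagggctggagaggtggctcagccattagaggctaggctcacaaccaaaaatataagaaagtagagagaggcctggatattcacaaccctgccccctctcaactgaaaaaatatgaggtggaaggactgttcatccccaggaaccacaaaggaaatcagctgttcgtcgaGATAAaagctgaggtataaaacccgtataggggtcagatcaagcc
Ms4a2: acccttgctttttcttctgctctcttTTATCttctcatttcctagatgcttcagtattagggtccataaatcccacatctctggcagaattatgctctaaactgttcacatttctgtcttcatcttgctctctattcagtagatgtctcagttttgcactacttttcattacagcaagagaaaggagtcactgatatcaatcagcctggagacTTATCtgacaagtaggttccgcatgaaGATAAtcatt
Ctsg: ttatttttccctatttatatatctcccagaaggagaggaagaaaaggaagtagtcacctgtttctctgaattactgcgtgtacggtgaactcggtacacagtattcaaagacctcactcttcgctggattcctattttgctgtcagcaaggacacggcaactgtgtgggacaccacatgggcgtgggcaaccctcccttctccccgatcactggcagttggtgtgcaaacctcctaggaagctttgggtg
The letters stood 25 bases before the start of Prss34 and 40 before that of Cpa3, 3 times before Ms4a2, the nearest at 5 bases, and at no place before Ctsg. Of the 12 genes of the basophil, mast cell and eosinophil list, 11 had a promoter in the RefSeq table, and the letters occurred in 6 of their 13 promoters (46.2%). The printed examples Prss34, Cpa3 and Ms4a2 all hold the letters and so do not stand for the whole list. The same letters were found in 22.6% of all 32851 promoters of this length and in 1 of 12 promoters of the primary granule list (8.33%). A match describes the sequence only.

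Members made up 2.46% (1.76 to 3.44) of library a (33 of 1339 cells), 2.37% (1.95 to 2.88) of library b (97 of 4095) and 2.67% (2.29 to 3.1) of library c (164 of 6147). The mean was 2.50% ± 0.153 (SD, n = 3 libraries), and the 3 intervals overlapped. The intervals are 95% Wilson intervals and cover counting error only. Mpo at 0.3% or more left 5487 cells (47.4%), and Elane under 0.5% left 1296. The limit on S100a8 and S100a9 removed 9 more cells, that on Ltf none, and the condition on Irf8 removed a further 993. The lowest Mpo share of a member was 0.3004% and the highest share of an otherwise qualifying cell outside was 0.2971%, with 70 members within 0.05 percentage points of the limit and 67 such cells as close below it. The highest Elane share of a member was 0.496% and the lowest outside was 0.503%. Of the 993 cells that met every condition but the one on Irf8, 139 held exactly 1 Irf8 UMI. When the 10921 cells with 2000 or more UMIs were each thinned to 2000 UMIs, 531 met the rule, a mean share of 4.805%. Among the reporter-positive libraries, 0 of 793 cells and 1 of 519 cells met the rule.

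**Figure D1:**
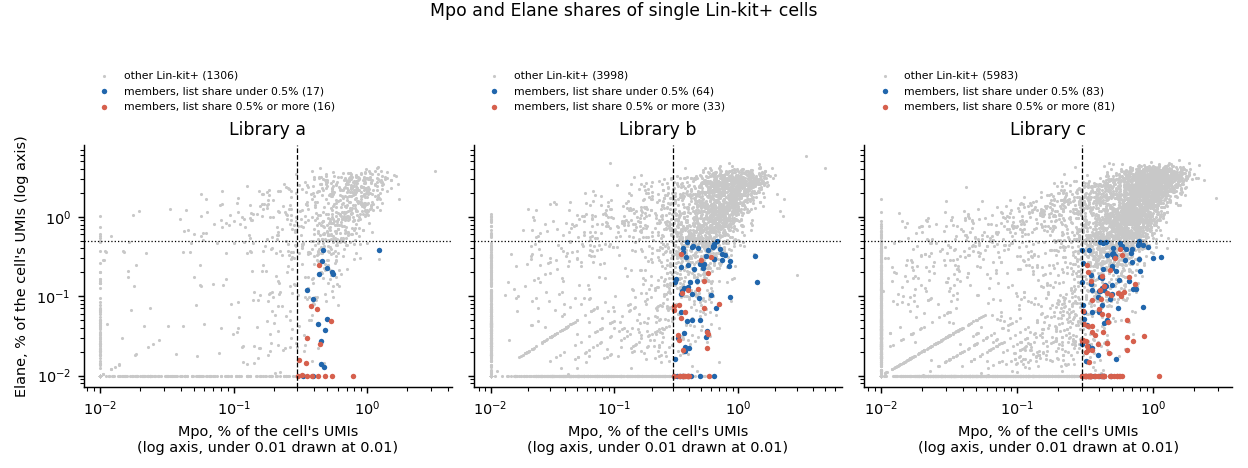
Mpo and Elane as shares of each cell's UMIs (both log axes, % of UMIs) for every Lin-kit+ cell of libraries a, b and c, with the Mpo limit of 0.3% as a dashed line and the Elane limit of 0.5% as a dotted line. Members are coloured by whether the basophil, mast cell and eosinophil list took 0.5% or more of their UMIs, and the gray cells inside the same corner are those with an Irf8 UMI or with too much S100a8 and S100a9.

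The 3 libraries held 10000606, 18683092 and 36080242 UMIs in Lin-kit+ cells. Members had a median of 4706 UMIs and 1550 genes per cell, against 5180 UMIs and 1549 genes in the other Lin-kit+ cells. The median mitochondrial share was 3.20% in members and 3.21% in the others. Scrublet called 2 of 294 members doublets (0.680%) and 121 of 11287 other cells (1.07%), and 1 member was among the 92 Lin-kit+ cells whose barcode sequence recurred in another library. Since the rule reads its own genes, each cell's UMIs were also divided at random into equal parts, with the rule applied to 1 part and its genes read in the other. This chose 423 cells, 249 of them members by all UMIs. In the UMIs not used for the choice, Irf8 stood at 136, 221 and 191 in the chosen cells, at 762, 771 and 743 in the Irf8-positive cells and at 79.3, 134 and 113 in cells of the same rule with Elane at 0.5% or more. Irf8 in the chosen cells lay above the Elane-high and below the Irf8-positive cells in each library, and it was not at 0. Elane stood at 1778, 1994 and 1957 in the chosen cells and at 17654, 16882 and 17383 in the Elane-high cells.

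Members were compared with all other Lin-kit+ cells, library by library, in sums of UMIs tested with edgeR's quasi-likelihood test with the library as a block. At an adjusted p of 0.05, 1168 of 9985 genes were called (11.7%), 440 of them higher in members (4.41%) and 728 lower (7.29%). Scaling by library totals in place of edgeR's TMM factors moved the median of all genes by 0.12 on the log2 scale and turned the split to 805 higher and 536 lower, so differences below are relative to the TMM scale. The 6 genes of the rule were left out of every test. Where groups are said below not to overlap, this describes the named gene only. The share of all genes without overlap was not counted for any comparison. Without library c 546 genes passed.

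All 11 genes tested of the 12 of the basophil, mast cell and eosinophil list were higher in the members (median log2 difference 4.07, against -0.03 over all genes tested). The summed level of the list ran from 17815 to 28343 CPM in members and from 1108 to 1275 in the other cells. In such sums, more cells with a transcript and more transcript per cell cannot be told apart, so the list is counted cell by cell further on. Prss34, a basophil serine protease, reached 7701, 6797 and 13004 CPM in members and 479.7, 499.9 and 465 in the other cells. Every member library lay above every library of the other cells, a log2 difference of 4.07 ± 0.06 (SE). Mcpt8, a protease that marks basophils, reached 6992, 5738 and 9685 against 395, 372 and 340.4, a log2 difference of 4.19 ± 0.06. Cpa3, a carboxypeptidase of mast cell and basophil granules, reached 1965, 1119 and 1791 against 75.3, 68.1 and 74, a log2 difference of 4.32 ± 0.08. The groups again did not overlap for either gene. For Fcer1a, the ligand-binding chain of the IgE receptor, the levels were 735, 455 and 964 in members and 42.8, 38.4 and 36.7 in the other cells, and for Ms4a2, its beta chain, 372, 243 and 444 and 25.4, 24.7 and 24.6. Prg2, the major basic protein of eosinophil granules, varied between libraries, with 619, 2961 and 1700 in members and 171, 77.6 and 86.8 in the other cells. Epx, the eosinophil peroxidase, was low at 38.4, 43.2 and 41.2 in members, yet stood at 3.99, 2.14 and 1.11 in the others. Gata2 was at 158, 84.1 and 133 in members and at 25.5, 22 and 19.3 in the others, a log2 difference of 2.39 ± 0.16 (adjusted p = 1.6e-48). Gzmb, the remaining gene of the list, had no UMI in members.

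These p-values rest on 1 estimate of spread shared by all genes. With a robust estimate that lets outlying genes keep their own spread, added after the data were seen, 8 of the 11 genes passed and the adjusted p was 0.064 for Prss34, 0.049 for Mcpt8, 0.0501 for Fcer1a and 0.27 for Prg2. DESeq2 called all 11. With equal numbers of cells in both sets the log2 difference of Epx fell from 4.33 ± 0.31 to 1.45 (adjusted p = 0.11) and that of Prg2 from 3.91 ± 0.08 to 1.56 (adjusted p = 0.27). Other genes that led the increases were Cyp11a1, the enzyme that starts steroid synthesis (85.4, 50 and 102 against 4.3, 3.73 and 3.6), Cd200r3, a receptor of basophils and mast cells (25.6, 59.1 and 102 against 4.1, 4.06 and 3.72), and Rnase12 (273, 123 and 291 against 12.6, 11.8 and 10.4). None of the 3 overlapped between the groups.

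**Figure D2:**
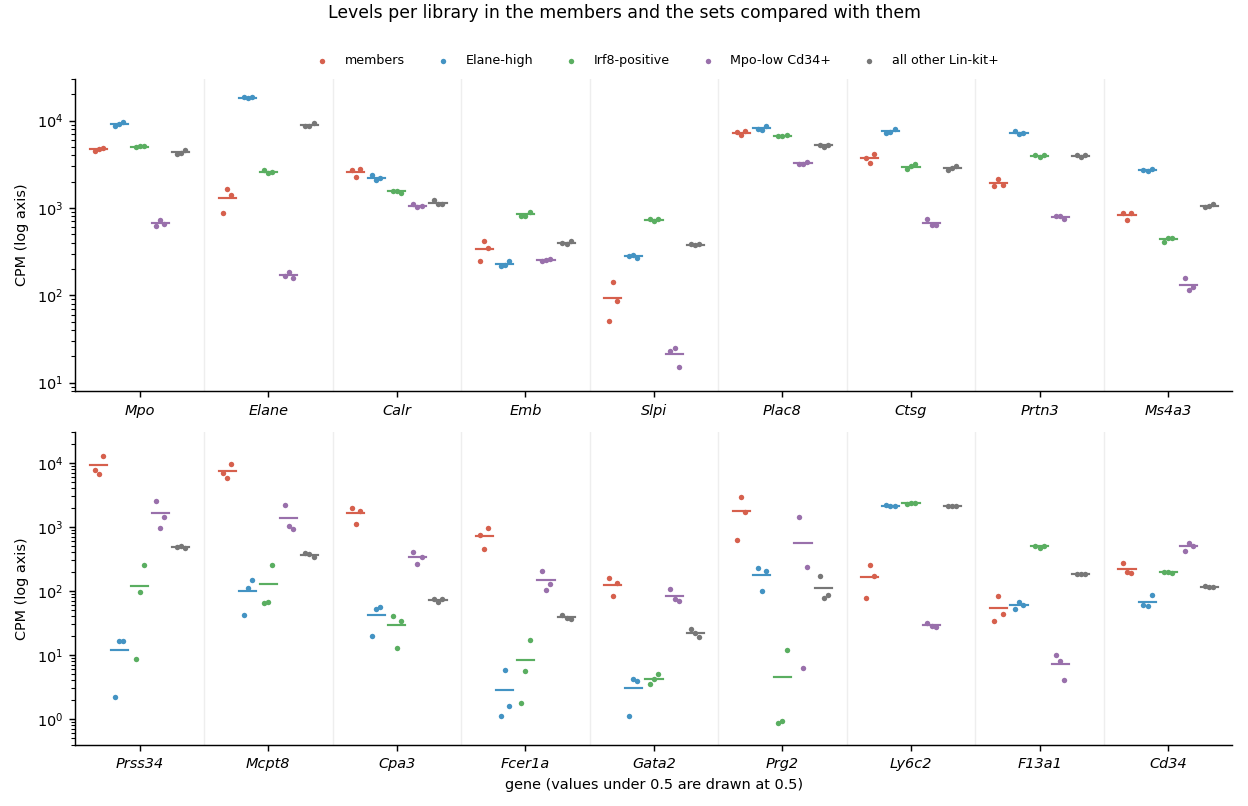
Levels of 18 genes (CPM, log axes) in the members, the Elane-high, Irf8-positive and Mpo-low Cd34-positive cells and all other Lin-kit+ cells. Each point is 1 of 3 libraries and each line the mean. Prss34, Mcpt8, Cpa3 and Fcer1a are higher in every member library than in any library of the other sets, while Mpo is highest in the Elane-high cells.

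The list genes were spread unevenly over the members. In 71 of 294 members no UMI of the list was read, while in 29 members the list took 10% or more of all UMIs. With a limit of 0.5% of UMIs, chosen after the values were seen, 130 members were marked by the list (44.2%): 48.5% (32.5 to 64.8) in library a, 34% (25.4 to 43.9) in library b and 49.4% (41.8 to 57) in library c. The same limit marked 319 of 11287 other Lin-kit+ cells (2.83%), 13 of 882 Elane-high cells (1.47%), 8 of 993 Irf8-positive cells (0.806%) and 66 of 929 Mpo-low Cd34-positive cells (7.10%). Members thus held 130 of the 449 marked Lin-kit+ cells (29.0%). A UMI of Prss34 was read in 41.2% of members (median 4706 UMIs per cell) and in 5.44% of Irf8-positive cells (median 6660 UMIs). The Irf8-positive set held 8 marked cells itself, so it gives no clean baseline for free RNA. Since Prss34 is in the list that made the split, its share in marked (86.9%) and unmarked members (4.88%) only describes the split. A UMI of Cpa3 was read in 43.3% of unmarked members, against 3.42% of Irf8-positive and 8.28% of Elane-high cells, and its level in unmarked members was 1056, 291 and 481. Mpo-low Cd34-positive cells, of which 7.10% were marked, are not in this comparison, so it does not set members apart from them. With marked cells left out of both sets, 6 of 9 tested list genes were still higher in members than in the other Lin-kit+ cells and none was lower. Among them were Cpa3 (log2 difference 4.29 ± 0.12, adjusted p = 9.1e-255), Fcer1a (2.52 ± 0.47, adjusted p = 3.2e-06), Mcpt8 (1.39 ± 0.23, adjusted p = 6.9e-08) and Gata2 (1.29 ± 0.29, adjusted p = 0.00017), while Prss34 did not pass (0.78 ± 0.47, adjusted p = 0.38). Outside the list Rnase12 (3.08 ± 0.49, adjusted p = 1.9e-08) and Gm11697 (3.23 ± 0.49, adjusted p = 2.1e-09) passed as well. Against Irf8-positive cells the log2 difference of Cpa3 was then 5.16 ± 0.16 (adjusted p = 3.8e-18). These cells were left out by their levels of the same genes, so the differences describe the members that remained. Of 130 marked members, 1 was called a doublet. The part of free RNA in the marked share was not tested beyond these values. Near the limit stood 23 members with 0.2 to 0.5% of their UMIs in the list and 11 with 0.5 to 1%.

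**Figure D3:**
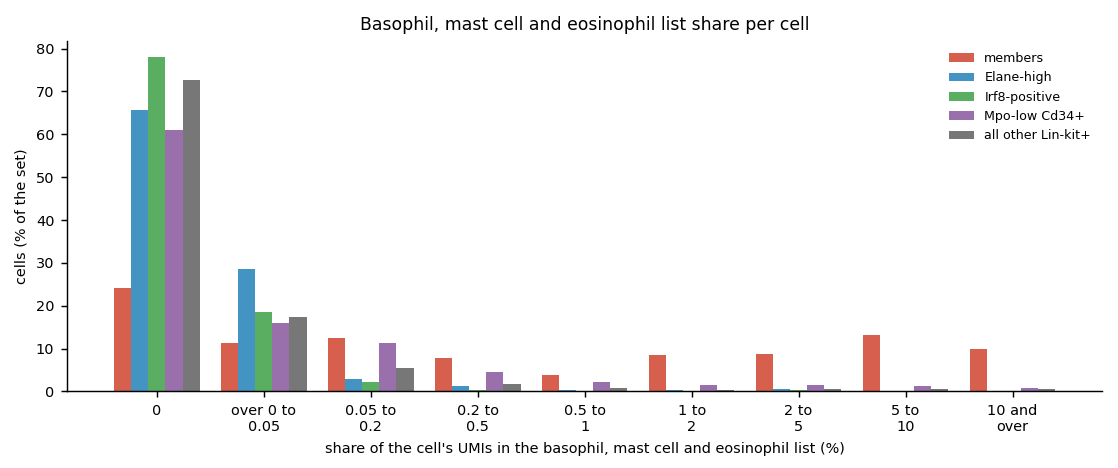
Share of each cell's UMIs taken by the 12 genes of the basophil, mast cell and eosinophil list (horizontal axis, bins in %) against the share of cells in the bin (% of the set), for members and the 4 sets compared with them. Members fill the bins from 0.5% upwards with 44.2% of their cells, and all other Lin-kit+ cells with 2.83%.

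Marked and unmarked members also differed in genes outside the list, described here without a test because the split was made on measured values. Mpo, a gene of the rule, was at 4024, 4345 and 4513 in marked and 4701, 4942 and 5028 in unmarked members. Prtn3 was at 500.3, 389.7 and 576 in marked members and at 2639, 2786 and 2795 in unmarked ones. Ctsg went the other way, with 5333, 4445 and 5468 in marked and 2582, 2858 and 3086 in unmarked members. Calr was at 3364, 2712 and 3349 and 2318, 2106 and 2314, and the lysosome and granule protein Cd63 at 3194, 3010.1 and 3523 and 492, 332 and 565. The stem and progenitor antigen Cd34 was lower in marked members, at 138, 66.3 and 80.1 against 364, 248 and 276. Ly6c2, a surface antigen of monocytes and their progenitors, was at 10.6, 24.9 and 18.7 in marked and 121, 338 and 291 in unmarked members. Myc, a transcription factor of growing cells, was at 85.2, 24.9 and 48 in marked and 164, 163 and 137 in unmarked members, and the nucleolar protein gene Npm1 at 1416, 1136 and 1299.7 and 2482, 2507 and 2303. The libraries of marked and unmarked members did not overlap for any of these genes, which were picked as examples. The share of all genes without overlap was not counted, so nothing is read from this. The G-CSF receptor gene Csf3r had no UMI in marked members and 42.8, 18.8 and 21.1 CPM in unmarked ones. Unmarked members were the deeper cells, with a median of 5228 UMIs against 4279.

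**Figure D4:**
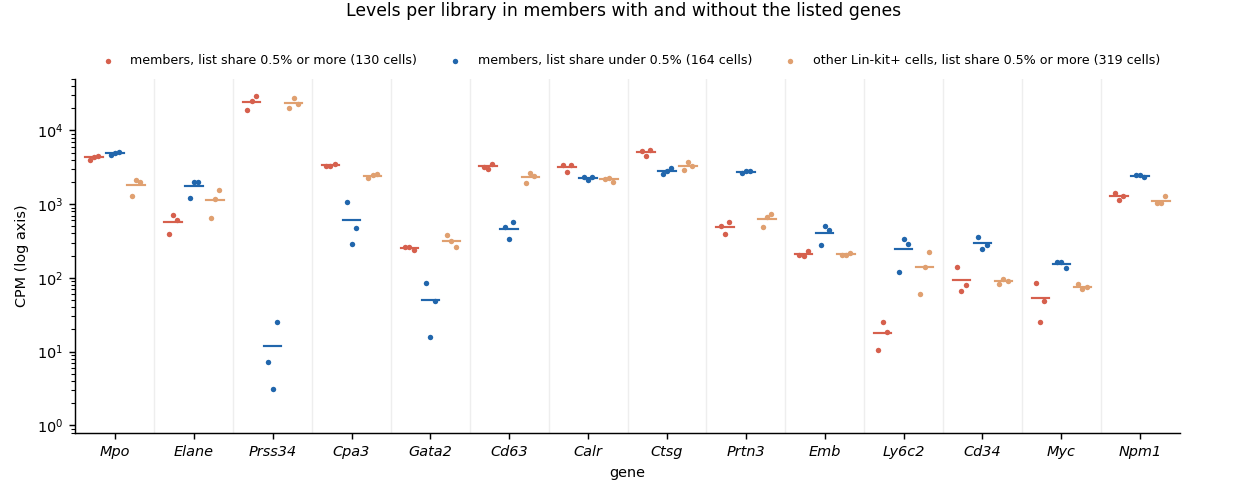
Levels of 14 genes (CPM, log axis) in members with 0.5% or more of UMIs in the basophil, mast cell and eosinophil list, in the remaining members and in other Lin-kit+ cells past the same limit. Each point is 1 of 3 libraries and each line the mean. Mpo is slightly lower in marked than in unmarked members and lowest in the other marked cells, while Prtn3, Ly6c2 and Npm1 are lower in marked than in unmarked members.

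Of the marker genes given with the name, Calr was at 2738, 2272 and 2771 in members and at 1219, 1114 and 1119.5 in the other Lin-kit+ cells. The groups did not overlap, and the log2 difference was 1.04 ± 0.06 (adjusted p = 1.2e-59). Plac8, a gene of myeloid and lymphoid progenitors, was at 7325, 6856 and 7638 against 5259, 5038 and 5307, a log2 difference of 0.35 ± 0.05 (adjusted p = 1.9e-09). Its difference without the marked cells in either set was 0.10 ± 0.06 (adjusted p = 0.42). Slpi, a secreted inhibitor of elastase and cathepsin G, was at 51.3, 143 and 86 in members and at 382, 373 and 382 in the others, a log2 difference of -2.08 ± 0.12 (adjusted p = 4.1e-70). Emb, a membrane glycoprotein, was at 248, 418 and 351 against 393, 383 and 414. These values overlapped, and its difference of -0.32 ± 0.09 (adjusted p = 0.0042) was lost with library totals, DESeq2, equal cell numbers and without the block or the marked cells. It was -0.21 without library a (adjusted p = 0.18), -0.31 without library c (adjusted p = 0.19) and 0.22 when the rule used 1 part of the UMIs and the other was measured (adjusted p = 0.097).

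Among the 12 primary granule genes tested, 2 were higher in members than in the other Lin-kit+ cells and 8 were lower. Ctsg was at 3686, 3293 and 4138 against 2707, 2837 and 3048 and rose by a log2 difference of 0.24 ± 0.06 (adjusted p = 0.00071). Srgn, the proteoglycan core of granules in many blood cells, was at 2678, 2051 and 2936 against 1459, 1508 and 1625. Neither was higher without the marked cells, when 11 of the 12 genes were lower. The call of Ctsg was also lost without library c, at a log2 difference of 0.19 (adjusted p = 0.21). Prtn3 fell from 4008, 3780.5 and 3993 in the others to 1781, 2129 and 1816 in members, a log2 difference of -1.17 ± 0.06 (adjusted p = 2.8e-80). Hp, the haptoglobin gene, was at 59.8, 118 and 101 against 580.5, 612 and 689.7, a log2 difference of -2.83 ± 0.11 (adjusted p = 2.6e-143). Lysozyme, Lyz2, was at 192, 271 and 300.4 in members and at 2380.4, 2622 and 2976 in the others. Elane itself, which chose the cells, was at 884, 1649 and 1390.2 in members and had no UMI in 72 of them (24.5%).

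Genes of later neutrophils were lower in members, with 9 of 11 tested genes of that list lower and none higher. The list summed to 423 to 798 CPM in members and to 61843 to 73492 in the other cells, and Mmp9, Ly6g and Retnlg had no UMI in members. Camp, an antimicrobial peptide of secondary granules, was at 8.54, 86.4 and 83.6 in members and at 8602, 10037 and 10544 in the others, and Ngp at 51.3, 70.5 and 80.1 and 6504, 7568 and 8413. The rule set limits on S100a8, S100a9 and Ltf, which belong to the same stage. Of 6 NADPH oxidase genes, which encode the respiratory burst enzyme, 5 were lower. Cybb, its catalytic subunit, was at 0, 4.55 and 4.71 in members and at 99.2, 102 and 105 in the others, a log2 difference of -4.83 ± 0.30 (adjusted p = 1e-55). Alas1, the first enzyme of heme synthesis, was the single gene of the heme list that changed, at 89.7, 91 and 80.1 against 173, 181 and 173 (log2 difference -1.16 ± 0.13, adjusted p = 3.8e-18).

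Monocyte and dendritic cell genes were also lower. Of 12 monocyte genes tested, 10 fell and none rose. Ly6c2 was at 76.9, 252 and 171 in members and at 2115, 2096 and 2097 in the others (log2 difference -3.70 ± 0.09, adjusted p = 0.065 with the robust spread), and F13a1, coagulation factor XIII, at 34.2, 84.1 and 43.6 and 187, 185 and 186 (adjusted p = 9.6e-39). Of 9 dendritic cell genes tested, 7 fell. Cd74, the invariant chain of class II molecules, had 7 UMIs in all members and stood at 402, 382 and 373 CPM in the others. Of 12 erythroid genes tested 9 fell, and of 6 lymphoid genes tested Dntt and Ccl5 fell.

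Receptor genes went both ways, with 6 of 20 higher and 6 lower. Csf2rb, the common beta chain of the receptors for IL-3, IL-5 and GM-CSF, was at 68.3, 36.4 and 57.7 in members and at 27.7, 27.6 and 25.1 in the others (log2 difference 0.89 ± 0.20, adjusted p = 0.0002). Il3ra, the alpha chain for IL-3, was at 38.4, 54.6 and 45.9 against 32.4, 25.3 and 17.8 (log2 difference 0.95 ± 0.21, adjusted p = 0.00019). Neither passed without the marked cells, with adjusted p = 0.87 and 0.4. Without library c the log2 difference was 0.66 for Csf2rb (adjusted p = 0.24) and 0.68 for Il3ra (adjusted p = 0.21). Both calls were also lost with equal numbers of cells. That of Il3ra was lost without the library block, and that of Csf2rb when the rule used 1 part of the UMIs. Of 36 transcription factor genes tested, 8 were higher and 5 lower. Cebpa, which starts granulocyte and monocyte differentiation, was at 38.4, 22.7 and 25.9 against 12.9, 12.3 and 8.83 (log2 difference 1.24 ± 0.29, adjusted p = 0.00031), and Myc at 132, 125 and 97.8 against 66.1, 70.4 and 72 (log2 difference 0.56 ± 0.13, adjusted p = 0.00052). Without library c Cebpa did not pass (log2 difference 1.05, adjusted p = 0.15), nor did it without the marked cells. Cebpe was lower, at 167, 123 and 108 against 253, 265 and 298 (log2 difference -1.28 ± 0.11, adjusted p = 1.2e-27). Cd34 was at 273, 198 and 189.7 in members and at 119.6, 116 and 116 in the others, without overlap (log2 difference 0.72 ± 0.11, adjusted p = 3.8e-10). With equal numbers of cells Myc (0.48, adjusted p = 0.14) and Cd34 (0.48, adjusted p = 0.051) did not pass.

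Of 40 genes for folding and secretion in the endoplasmic reticulum, 14 were higher in members and none was lower (median log2 difference 0.23). With library totals the count was 25. Hspa5, the chaperone BiP, was at 939.6, 787 and 1011 against 556, 592 and 678 (log2 difference 0.45 ± 0.07, adjusted p = 3.8e-08), and Manf at 841, 621 and 699 against 478, 468 and 477 (adjusted p = 1.2e-07). Without the marked cells 1 of the 40 was higher and 3 were lower, with Hspa5 at a log2 difference of 0.05 ± 0.08 (adjusted p = 0.8). Among 25 genes of G2 and mitosis 8 were lower and none was higher, and of 26 genes of S phase 1 was higher and 2 were lower. The G2 and mitosis list took 0.36, 0.386 and 0.471% of UMIs in members and 0.458, 0.458 and 0.505% in the other cells. The share was lower in members in each library, although the ranges overlapped across libraries.

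**Figure D5:**
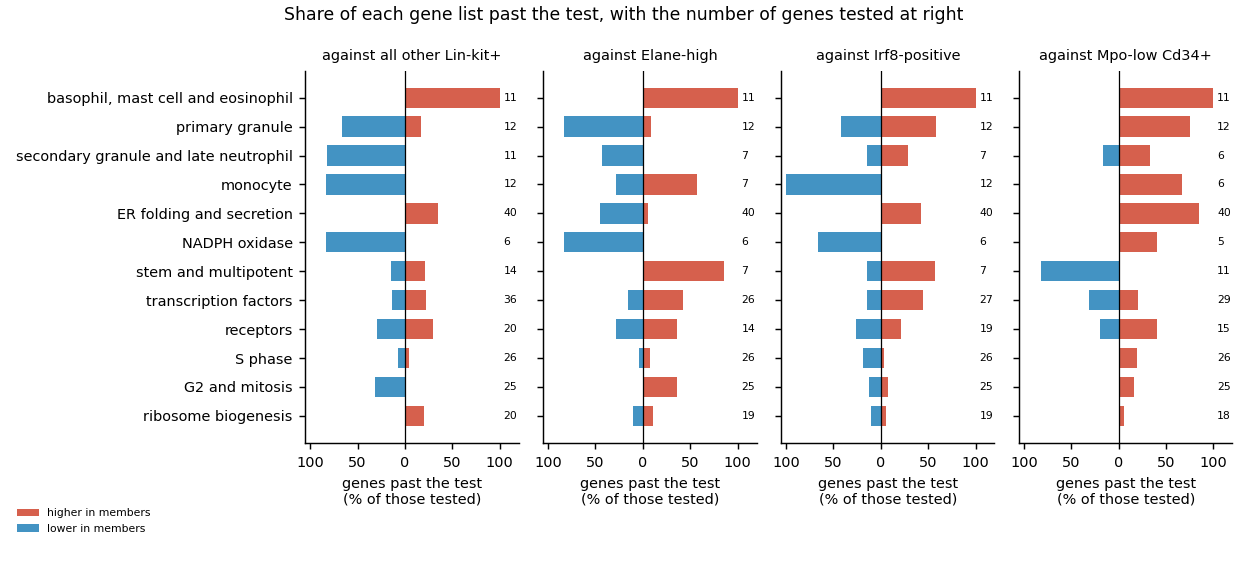
For 12 gene lists, the share of tested genes that passed an adjusted p of 0.05 higher (red, to the right) or lower (blue, to the left) in members, in % of the genes tested, with the number tested at the right of each bar. Each panel is a comparison with another set of Lin-kit+ cells. The basophil, mast cell and eosinophil list is at 100% higher in all 4 panels, and the folding and secretion list has 18 of 40 genes lower against Elane-high cells and 34 of 40 higher against Mpo-low Cd34-positive cells.

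Towards neutrophils, members were compared with 882 Elane-high cells, which met the same rule with Elane at 0.5% of UMIs or more. Because the sets were split on Elane, granule genes that go with Elane can differ through this choice, and their p-values only describe the split. Of 5857 genes tested, 1182 passed (20.2%), 592 higher in members (10.1%) and 590 lower (10.1%). Without library c 631 genes passed. Mpo, which entered the rule of both sets, was at 8726, 9017 and 9501 in Elane-high cells and at 4429, 4778 and 4801 in members. Of the 12 primary granule genes tested 10 were lower in members and 1 was higher, and the same count was lower without the marked cells. Prtn3 was at 1781, 2129 and 1816 in members and at 7592, 7096 and 7154 in Elane-high cells, a log2 difference of -1.98 ± 0.05 (adjusted p = 3.4e-140). Ctsg was at 3686, 3293 and 4138 against 7161, 7372 and 7999 (log2 difference -1.07 ± 0.04, adjusted p = 1.3e-78), and Ms4a3, a gene of granulocyte-monocyte progenitors, at 879.9, 721 and 879 against 2695, 2624 and 2756. Lyz2 was the gene of the list that was higher, at 192, 271 and 300.4 against 149.7, 214 and 233 (adjusted p = 0.016). It was higher in each library, although the groups overlapped across libraries. It did not pass with DESeq2, with equal cell numbers, without the low count filter or without the library block. Its log2 difference was 0.31 without library c (adjusted p = 0.17).

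Calr was at 2738, 2272 and 2771 in members and at 2358, 2098 and 2171 in Elane-high cells, 2 sets that differ in Mpo. Calr was higher in members in each library, although the values overlapped across libraries. Its log2 difference was 0.18 ± 0.05 (adjusted p = 0.0043). The difference was -0.05 ± 0.05 without the marked cells (adjusted p = 0.59) and 0.12 without library c (adjusted p = 0.31). The call was also lost with DESeq2, without the low count filter and without the library block. It was lost as well when the rule used 1 part of the UMIs and the other was measured. Plac8 was lower in members than in Elane-high cells in each library, at 7325, 6856 and 7638 against 8066, 7783.5 and 8578. Slpi was lower too, at 51.3, 143 and 86 against 281, 287 and 269. Emb was higher in each library, at 248, 418 and 351 against 216, 221 and 249. Of the 40 folding and secretion genes 18 were lower in members and 2 were higher, Calr and Ddit3. Sdf2l1, an HSP40 partner in the endoplasmic reticulum, was at 564, 450.3 and 423 against 824, 843 and 599 (log2 difference -0.70 ± 0.08, adjusted p = 1.1e-14). Alas1 was at 89.7, 91 and 80.1 in members and at 404, 381 and 359 in Elane-high cells, a log2 difference of -2.18 ± 0.12 (adjusted p = 1.1e-49). Of 6 NADPH oxidase genes 5 were lower as well.

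Wfdc21 led the decreases against Elane-high cells, with 7 UMIs in all members and 399.9, 399 and 339.6 CPM in the Elane-high libraries. Other genes that fell were B4galt6, a galactosyltransferase (4.27, 4.55 and 2.36 against 105, 91 and 92.9), Hsd11b1, which regenerates active glucocorticoid (4.27, 2.27 and 3.53 against 71.5, 73.6 and 80.9), and Clec4a2, a lectin receptor of myeloid cells (0, 2.27 and 10.6 against 127, 126 and 100.3). Gfi1, a repressor needed for neutrophil differentiation, was at 0, 2.27 and 5.89 in members and at 29, 25.2 and 28.2 in Elane-high cells (log2 difference -2.82 ± 0.45, adjusted p = 1.8e-08). Cebpe was lower as well, at 167, 123 and 108 against 342, 289 and 331 (adjusted p = 2.1e-27). Ly6c2 was at 76.9, 252 and 171 in members and at 2197, 2128 and 2089.6 in Elane-high cells, a log2 difference of -3.63 ± 0.08 (adjusted p = 1.5e-144).

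Genes of immature cells were higher in members than in Elane-high cells, with 6 of 7 tested genes of the stem and multipotent list higher, also without the marked cells. Cd34 was at 273, 198 and 189.7 against 60.3, 58.4 and 85.1 (log2 difference 1.49 ± 0.13, adjusted p = 4.2e-24). Ifitm1 was at 824, 698 and 974 against 42.4, 61 and 71.9 (log2 difference 3.72 ± 0.10, adjusted p = 3.4e-125). Its level was 1214, 1368 and 1572 in marked and 564, 445 and 502 in unmarked members. Of the basophil, mast cell and eosinophil list all 11 tested genes were higher and the list summed to 354 to 498 CPM in Elane-high cells. Prss34 was at 2.23, 16.3 and 16.8 in Elane-high cells (log2 difference 9.40 ± 0.08, adjusted p with the robust spread = 0.0076). Of 25 genes of G2 and mitosis 9 were higher in members and none was lower, and without the marked cells 4 of 23 were higher and 1 was lower. All 5 stress and immediate early genes tested were higher, among them Fos at 29.9, 38.7 and 49.5 against 8.94, 8.42 and 17.2 (log2 difference 1.67 ± 0.27, adjusted p = 2.8e-08), and without the marked cells 2 of 4 were.

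Towards monocytes, they were compared with 993 Irf8-positive cells, which met every condition except the one on Irf8. The split was made on Irf8, so monocyte genes that go with Irf8 can differ through this choice, and their p-values only describe the split. Of 6293 genes tested, 1144 passed (18.2%), 563 higher in members (8.95%) and 581 lower (9.23%). Without library c 407 genes passed. Leaving out the marked cells left 607, 234 higher and 373 lower. Mpo was at 4935, 5061 and 5075 in these cells and at 4429, 4778 and 4801 in members. All 12 monocyte genes tested were lower in members, also without the marked cells. The list summed to 995 to 1380 CPM in members and to 5943 to 6212 in Irf8-positive cells. F13a1 was at 34.2, 84.1 and 43.6 against 501, 475 and 509 (log2 difference -3.18 ± 0.13, adjusted p = 4.7e-90), and Csf1r, the receptor of the monocyte growth factor, at 4.27, 11.4 and 7.07 against 57.7, 44.3 and 48.4 (log2 difference -2.60 ± 0.33, adjusted p = 9e-13). Klf4, a transcription factor of monocytes, had 3 UMIs in all members and stood at 24.5, 25.9 and 31.4 CPM in Irf8-positive cells. Ly6c2 was at 76.9, 252 and 171 against 2278, 2346 and 2348 (log2 difference -3.70 ± 0.08, adjusted p = 3.1e-192). With the robust spread its adjusted p was 0.019. Ms4a4c, a further gene among the largest decreases, was at 0, 4.55 and 2.36 against 54.2, 63.6 and 66.5 (log2 difference -4.54 ± 0.40, adjusted p = 1.2e-24).

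Granulocyte genes divided the other way against Irf8-positive cells, with 7 of 12 primary granule genes higher in members and 5 lower. Nkg7, a granule membrane protein, was at 871, 625 and 945 against 125, 161 and 183 (log2 difference 2.34 ± 0.08, adjusted p = 9.7e-110), and Srgn at 2678, 2051 and 2936 against 687, 744 and 845 (log2 difference 1.74 ± 0.06, adjusted p = 8.1e-120). Prtn3 was lower, at 1781, 2129 and 1816 against 4061, 3807 and 4004 (log2 difference -1.04 ± 0.05, adjusted p = 2e-69). The counts without the marked cells were 4 higher and 5 lower. Cebpe was at 167, 123 and 108 in members and at 9.62, 10.4 and 14.9 in Irf8-positive cells, a log2 difference of 3.30 ± 0.20 (adjusted p = 2.7e-48). In unmarked members it was at 249.7, 119 and 112. Of 27 transcription factor genes 12 were higher, among them Cebpa, Runx1, Myb, Myc, Gata1 and Gata2, and 4 were lower, namely Spi1, Irf5, Klf4 and Zeb2. Cd34 did not differ beyond the spread, at 273, 198 and 189.7 against 199, 195 and 193 (adjusted p = 0.58), and without the marked cells its log2 difference was 0.48 ± 0.11 (adjusted p = 0.0044).

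Slpi and Emb were both lower in members than in Irf8-positive cells. Slpi was at 51.3, 143 and 86 against 748, 709 and 748 (log2 difference -2.90 ± 0.11, adjusted p = 4.6e-104), and Emb at 248, 418 and 351 against 813, 813 and 894 (log2 difference -1.26 ± 0.08, adjusted p = 2.4e-46). Calr was higher, at 2738, 2272 and 2771 against 1574, 1579 and 1497 (log2 difference 0.75 ± 0.05, adjusted p = 1.4e-37), and 17 of 40 folding and secretion genes were higher with none lower, 1 higher and 2 lower without the marked cells. Cd63 was at 1576, 1067 and 1871 in members and at 51.6, 54.2 and 79.3 in Irf8-positive cells (log2 difference 4.57 ± 0.08, adjusted p = 1.5e-226). All 11 tested genes of the basophil, mast cell and eosinophil list were higher, also with the robust spread, where Prss34 had an adjusted p of 0.037 and Mcpt8 of 0.018. Of 6 NADPH oxidase genes 4 were lower, with Cybb at 0, 4.55 and 4.71 against 42.9, 50.4 and 44.6 (adjusted p = 1.2e-15).

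Towards immature cells, they were compared with 929 cells with Mpo under 0.3%, at least 1 Cd34 UMI and the other conditions unchanged. Mpo and Cd34 made this split, so granule and stem cell genes that go with them can differ through the choice of cells. For such genes the p-values only describe the split. Of 5915 genes tested, 1036 passed (17.5%), 551 higher in members (9.32%) and 485 lower (8.2%). Library totals turned the split to 450 higher and 626 lower, and DESeq2 gave 207 and 107. Without library c 583 genes passed. Mpo, used by the rule, was at 622, 731 and 649 in these cells. Primary granule genes were higher in members, 9 of 12 with none lower, and 10 of 12 without the marked cells. Ctsg was at 3686, 3293 and 4138 against 738, 632 and 641 (log2 difference 2.52 ± 0.07, adjusted p = 1.8e-37), Prtn3 at 1781, 2129 and 1816 against 816, 810 and 749 (log2 difference 1.32 ± 0.07, adjusted p = 4.8e-23), and Ms4a3 at 879.9, 721 and 879 against 156, 114 and 124. Cebpe was at 167, 123 and 108 against 15.7, 5.35 and 16.7 (log2 difference 3.28 ± 0.22, adjusted p = 1.9e-18).

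All 4 tested marker genes of the name were higher in members than in Mpo-low Cd34-positive cells, also without the marked cells. Marker, folding and heme genes that go with Mpo can differ here through the choice of cells as well. The p-values of this paragraph thus only describe the split. Calr was at 2738, 2272 and 2771 against 1108, 1023 and 1054 (log2 difference 1.34 ± 0.06, adjusted p = 2.5e-25). Plac8 was at 7325, 6856 and 7638 against 3208, 3176 and 3373 (log2 difference 1.21 ± 0.04, adjusted p = 1e-31), and Slpi at 51.3, 143 and 86 against 22.9, 25 and 15.2 (log2 difference 2.36 ± 0.21, adjusted p = 1.7e-13). Emb was at 248, 418 and 351 against 246, 253 and 259 (log2 difference 0.52 ± 0.10, adjusted p = 0.00011), a call that DESeq2 did not make. It was higher in each library, although the groups overlapped across libraries. The folding and secretion genes counted 34 of 40 higher and none lower (median log2 difference 0.83, against -0.02 over all genes tested). When the marked cells were left out 27 of 38 were higher and none was lower. Sdf2l1 was at 564, 450.3 and 423 against 153, 146 and 117 (log2 difference 1.85 ± 0.10, adjusted p = 1e-22) and Hspa5 at 939.6, 787 and 1011 against 367, 372 and 473 (log2 difference 1.22 ± 0.09, adjusted p = 7.9e-18). Alas1 was at 89.7, 91 and 80.1 against 31.4, 22.3 and 23.3 (log2 difference 1.86 ± 0.20, adjusted p = 1.1e-10).

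Stem and multipotent genes were lower in members than in Mpo-low Cd34-positive cells, 9 of 11 tested with none higher, and 9 of 10 without the marked cells. Ly6a, the antigen Sca-1, had 2 UMIs in all members and stood at 58.6, 77.6 and 60.4 CPM in Mpo-low Cd34-positive cells. Dntt, a DNA polymerase of lymphoid progenitors, had 1 UMI in all members and 174, 338 and 322 CPM in that set, and Pf4, a platelet factor, 2 UMIs against 130.1, 197 and 387. Myl10, a myosin light chain, was at 8.54, 15.9 and 10.6 against 386, 378 and 346 (log2 difference -4.85 ± 0.19, adjusted p = 1.3e-29). Kit was at 29.9, 40.9 and 37.7 in members and at 61.5, 64.2 and 56.8 in Mpo-low Cd34-positive cells (log2 difference -0.61 ± 0.21, adjusted p = 0.038), a call that DESeq2 did not make and that was lost without the marked cells. The difference was -0.52 without library a (adjusted p = 0.14), -0.64 without library b (adjusted p = 0.12) and -0.74 without library c (adjusted p = 0.11). The basophil, mast cell and eosinophil list was higher here too, 11 of 11, although 66 of these cells were marked and the list summed to 2647 to 7135 CPM. With the robust spread 7 of 11 passed, with adjusted p = 0.15 for Prss34 and 0.65 for Prg2. DESeq2 also called 7 of 11. Gata2 was at 158, 84.1 and 133 against 107, 74 and 68.5 (log2 difference 0.73 ± 0.16, adjusted p = 0.00036). It was higher in each library, although the values overlapped across libraries, and DESeq2 did not call it. It was 0.40 without library c (adjusted p = 0.29) and -0.39 without the marked cells (adjusted p = 0.32).

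Within the members, cells above the median Mpo share of their library (146 cells) were set against those at or below it (148 cells). Since the split used Mpo, which also chose the members, and since Mpo and every other gene are shares of the same total, the values are a description and nothing is read from the calls. Of 2485 genes 21 were called (0.845%), 3 of them higher with high Mpo (0.121%) and 18 lower (0.724%), and the count was 4 without library b and 3 without library c. Cebpe was at 299, 177 and 172 with high Mpo and at 41.5, 68.4 and 39.3 with low Mpo. Ly6c2 was at 132, 389.9 and 235 against 24.9, 114 and 101, and Prtn3 at 2218, 2553 and 2204 against 1369, 1702 and 1393. The high and low cells overlapped for none of the 3. Prss34 was at 2438, 4208 and 9220 with high and 12662, 9404 and 17112 with low Mpo, and Gata2 at 79.2, 40.8 and 99.6 against 232, 128 and 169.6. Both lay lower with high Mpo in each library.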

How the data were processed

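Lin-kit+ and reporter-positive bone marrow cells were profiled with droplet-based single-cell 3′ RNA sequencing. The authors aligned and counted the reads with Cell Ranger, combined consecutive sequencing runs and deposited 1 table of raw UMI counts per gene and cell. The submitters' processing notes name Cell Ranger 1.3 and 2.1, Seurat 2.3.4 and the build mm10. The table held 15287 genes and 12893 cells, and every gene had UMIs in at least 3 cells. The 3 libraries other than those of 793 and 519 cells were taken as Lin-kit+. No further cells were removed, and doublets were only counted (Scrublet in scanpy 1.11.5).

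UMIs were summed per library and set of cells, and sums were tested with edgeR 4.0.16 in R 4.3.3 (TMM scaling, filterByExpr, quasi-likelihood test, Benjamini-Hochberg adjustment over all genes tested, threshold 0.05). The library was a block because both sums came from the same library. The genes of the rule were not tested, nor was Cd34 where it chose a set. Alternatives were DESeq2 1.42.0, other scalings, filters, thresholds and sets of cells. The robust spread and the removal of cells marked by the basophil, mast cell and eosinophil list were chosen after seeing the data. Named genes were the 10 each way with the largest fitted difference among those past the threshold, with at least 100 UMIs and every library changed the same way, plus the given markers and examples from the gene lists. The members and lists were chosen with earlier results of these data known. Promoters came from RefSeq (GRCm38.p6) and were searched on both strands.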

Additional observations from a re-analysis of the deposited data

How the results depend on the processing

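The mean share of members among Lin-kit+ cells was 2.50%. It became 3.82% with Mpo at 0.2% or more, 0.785% with Mpo at 0.5% or more, 2.03% with Elane under 0.25%, 3.47% with Elane under 1%, 11.1% with Irf8 not used, 4.805% with cells thinned to 2000 UMIs and 1.45% without the marked cells, and it ran from 2.42 to 2.57% with each library left out. The number of genes past the threshold fell with DESeq2 to 510 (from 1168) against all other Lin-kit+ cells, 429 (from 1182) against Elane-high cells, 426 (from 1144) against Irf8-positive cells, 314 (from 1036) against Mpo-low Cd34-positive cells and 6 (from 21) between high and low Mpo. Without the replicate block, in which the library pairs the 2 sums, the counts were 678, 659, 632, 540 and 1 in the same order. Equal numbers of cells gave 371 of 3892 genes tested against all others, 675 of 4343 against Elane-high and 674 of 3831 against Mpo-low Cd34-positive cells. The main fits tested 9985, 5857 and 5915 genes in these comparisons, so the counts are not on the same base. With the rule on 1 part of the UMIs and the other measured, 749 of 4680 genes tested passed against Elane-high cells. In that setting 580 of 4830 passed against Irf8-positive and 682 of 4169 against Mpo-low Cd34-positive cells. Leaving out the marked cells, 607 passed against Irf8-positive cells and 3 between high and low Mpo, where removing doublets gave 32. With 1 library left out the counts ran from 546 to 948, 631 to 1024, 407 to 1100, 583 to 940 and 3 to 17, lowest without library c in every comparison. Fewer cells or UMIs entered the fits with equal cells, split UMIs, left-out libraries and left-out marked cells; the cause of the other changes was not tested.

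In the counts that follow, a gene with no test result in a setting was left out of that setting. Against all other Lin-kit+ cells, Epx, Cyp11a1 and Cd200r3 had no result without the marked cells. The counts cover 173 pairs of a gene and a comparison, so a gene named in several comparisons counts in each. Over their alternatives, 2201 of 2343 differences kept their direction and call, 127 lost the call, 3 gained it and 12 turned in direction. Of the last, 11 turned without the marked cells. Against all other Lin-kit+ cells these were Prg2 at -2.26, Cd63 at -0.55, Ctsg at -0.19, Srgn at -0.059 and Manf at -0.072. Against Elane-high cells they were Mcpt8 at -0.14 and Calr at -0.048, against Irf8-positive cells Plac8 at -0.15, Ctsg at -0.10 and Manf at -0.043, and against Mpo-low Cd34-positive cells Gata2 at -0.39. Emb against all other Lin-kit+ cells became 0.22 with split UMIs. The members numbered 33 in library a, which limits what that library can show for genes with few UMIs.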
